A study of Mus musculus with 18 samples.

Results

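The 10 genes that mark the primitive endoderm were followed here through exit from naive pluripotency in mouse embryonic stem cells (ESCs): *Gata4*, *Gata6*, *Sox17*, *Sox7*, *Foxa2*, *Hnf4a*, *Pdgfra*, *Dab2*, *Cubn* and *Amn*. They were picked by name as textbook markers, with earlier results of these data known. All were matched by Ensembl identifier, 10 of the 53801 genes in the count table. All 10 were among the 18469 genes that passed the filter on low counts, which 1 group with enough counts can satisfy. The RNA-seq libraries came from WT cells, the parental E14 line, and from iEZR_CA cells, in which doxycycline switches on a constitutively active, phosphomimetic form of ezrin, a linker between the plasma membrane and the actin cortex. Each line was grown on gelatin and sampled at 0 h in 2i+LIF (ESC). This medium holds cells naive with a MEK inhibitor, the GSK3 inhibitor CHIR and LIF. Later samples were taken 24 h (T24) and 48 h (T48) after the switch to N2B27 alone, without these factors. There were 3 libraries in each of the 6 groups. Doxycycline was given to iEZR_CA cells from about 16 h before exit and is not described for WT cells, so that the drug, the transgene and any other difference between the cultures cannot be told apart. The transgene carries an IRES mCherry reporter, and whether the iEZR_CA cells are 1 clone or a pool is not given in the sources used here. Libraries held 10940752 to 33276622 counts on genes (median 23096248).

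The primitive endoderm is the sheet of cells that separates from the epiblast in the late blastocyst and later forms the parietal and visceral endoderm of the yolk sac. FGF signalling through ERK and the factors *Gata6*, *Gata4*, *Sox17* and *Sox7* drive this lineage, PDGF signalling through *Pdgfra* supports it, and its cells go on to take up maternal proteins through an endocytic receptor built from cubilin, amnionless and megalin. ESCs correspond to the naive epiblast, the sister lineage, in which these genes are normally low.

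Compared per length, in RPKM (counts scaled by exon length and by the total on genes), the mean level of the 10 genes over the 18 libraries ran from 0.0593 RPKM for *Sox7* to 1.48 RPKM for *Dab2*. *Gata4* was second at 0.377 RPKM, followed by *Gata6* at 0.288 RPKM, but the order changed with the group. In WT ESCs *Gata4* stood at 1.19 RPKM and *Dab2* at 0.292 RPKM, in WT T24 cells *Gata6* was the highest of these 3 at 0.292 RPKM, and in every iEZR_CA group *Gata6* was above *Gata4*. These levels placed the 10 genes between percentile 1.83 and percentile 35.2 of all genes tested. The labelled cell type was checked by *Pou5f1*, the core pluripotency factor, which was at percentile 99.3 and had 16154 ± 713 normalized counts (SD, n = 3) in WT ESCs, 13126 ± 583 in WT T48 cells, 13033 ± 227 in iEZR_CA ESCs and 10869 ± 85.1 in iEZR_CA T48 cells. *Dab2* reached 4.06 RPKM in iEZR_CA ESCs. The 9 genes other than *Dab2* stayed at or under 101.3 normalized counts (raw counts divided by a size factor for library depth) in every library, so that counting error limits them, and fewer cells of a type and less RNA per cell cannot be told apart in such bulk samples.

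**Figure D1:**
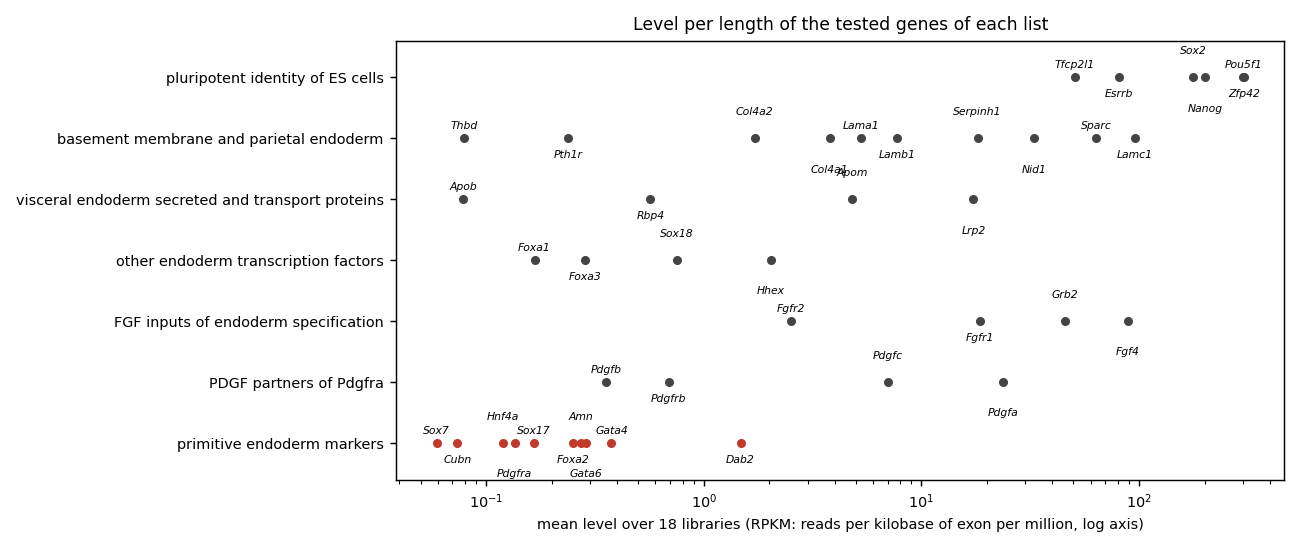
Mean level over the 18 libraries, in RPKM on a log axis, of each tested gene of the primitive endoderm markers (red) and of 6 other lists (grey), 1 row per list and 1 point per gene. The markers span 0.0593 to 1.48 RPKM and lie to the left of all 6 genes of the pluripotent list.

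*Ezr* itself had 11763 ± 277, 7711 ± 175 and 10096 ± 413 normalized counts at the successive WT stages and 24819 ± 499, 20793 ± 564 and 16215 ± 165 at those of iEZR_CA (SD, n = 3). The difference was 1.07, 1.43 and 0.69 on the log2 scale (edgeR, adjusted p = 3.43e-45, 2.17e-52 and 9.56e-35). The counts do not separate transgene reads from those of the endogenous gene. The 10 markers did not move as a block between the lines. In ESCs, 4 of the 10 differed with an adjusted p-value under 0.05 by edgeR's quasi-likelihood test, 2 higher (*Dab2*, *Gata6*) and 2 lower (*Gata4*, *Sox7*) in iEZR_CA cells, where 54.5% of all genes tested differed. At T24, 3 differed, with *Dab2* and *Amn* higher and *Hnf4a* lower, beside 60.9% of all genes. At T48, 7 differed, with *Foxa2* and *Hnf4a* higher and *Gata4*, *Sox7*, *Pdgfra*, *Dab2* and *Cubn* lower, beside 61.1% of all genes. The *Sox7* calls in ESCs and at T48 could not be tested with the low-count filter set on the compared groups alone. In the main fit, WT libraries alone let *Sox7* through that filter. The share of all genes depended on the setting. With libraries scaled to the added spike-in RNAs it was 29.8%, 38.6% and 39.1% at the 3 stages, beside 4, 2 and 6 markers, and without a filter on low counts it was 25.8%, 29.2% and 29.8%, beside 4, 2 and 6 markers. The median log2 fold change of the 10 genes was -0.07 in ESCs, -0.17 at T24 and -0.70 at T48, and that of all genes tested lay between -0.01 and 0 at each stage. Summed over the 10 genes, iEZR_CA ESCs had 794 ± 31.9 normalized counts and WT ESCs 270 ± 11.6, but without *Dab2* the remaining 9 genes summed to 163 ± 15.7 in iEZR_CA and 225 ± 0.546 in WT ESCs.

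**Figure D2:**
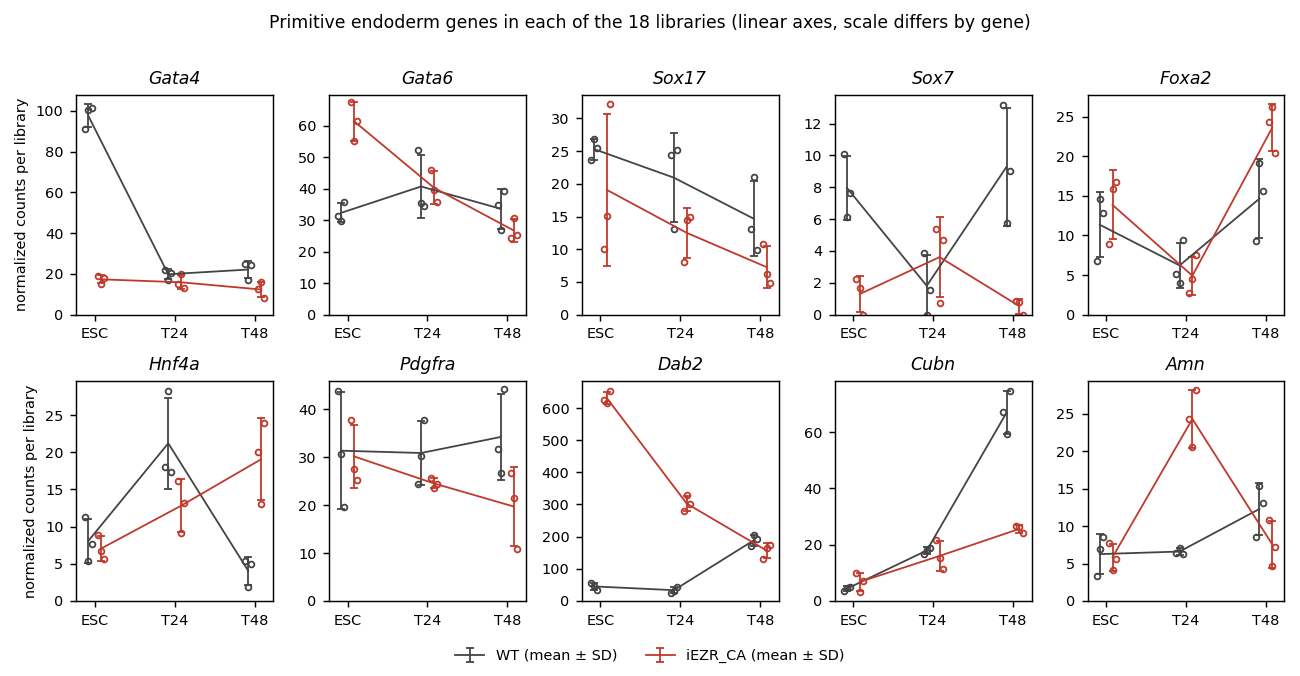
Normalized counts of the 10 genes (vertical axes, linear, scaled per gene) at ESC, T24 and T48 in WT (grey) and iEZR_CA (red) cells, with each library as an open circle and the mean ± SD of 3 libraries as a bar. *Dab2* starts at 631 in iEZR_CA ESCs and falls, *Gata4* starts at 97.5 in WT ESCs and falls, and *Cubn* climbs to 67.0 in WT T48 cells.

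**Figure D3:**
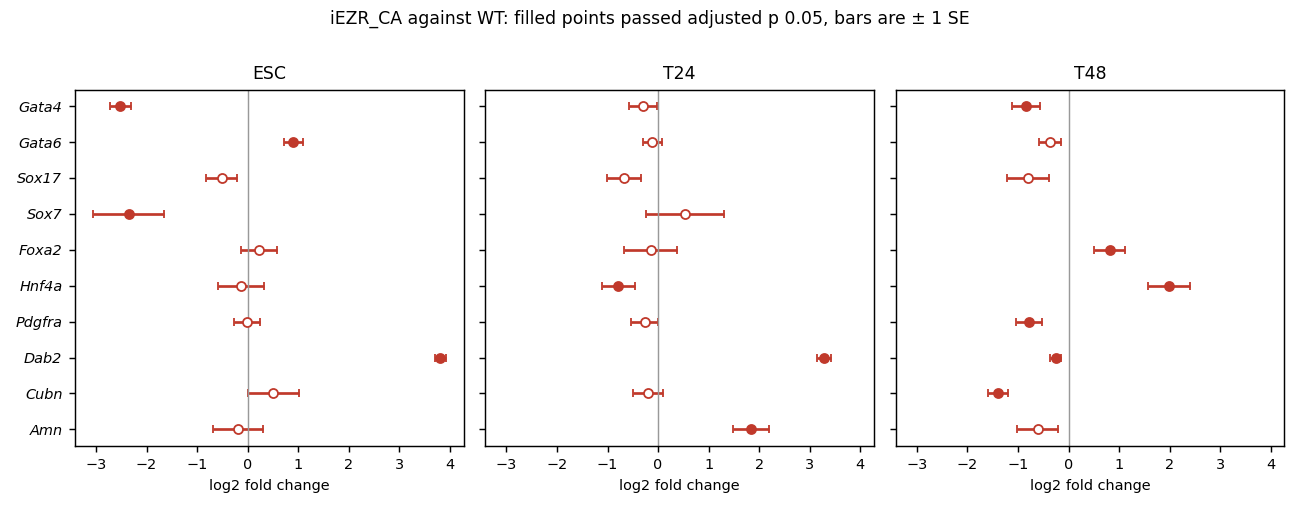
Log2 fold change (horizontal axis, ± 1 standard error) of iEZR_CA against WT for each gene at each stage, with filled points for an adjusted p-value under 0.05. *Dab2* lies at 3.81 in ESCs and 3.29 at T24, and *Gata4* and *Sox7* lie below -2 in ESCs; *Sox7* is left out at T48, where the iEZR_CA group had 2 counts.

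*Gata4* (ENSMUSG00000021944, chromosome 14, 63198922 to 63271692, minus strand, GRCm38) encodes a zinc finger factor that drives endoderm genes. WT ESC libraries had 91.0, 100.2 and 101.3 normalized counts and iEZR_CA ESC libraries 18.8, 15.1 and 18.2. At T24, WT libraries had 21.9, 17.2 and 20.5 and iEZR_CA libraries 14.8, 19.8 and 13.1. At T48, WT libraries had 24.7, 17.2 and 24.6 and iEZR_CA libraries 12.5, 16.2 and 8.39. WT ESCs stood apart from the other 5 groups, and the lines overlapped at T24 but not in ESCs or at T48. *Gata4* was thus lower in iEZR_CA cells in ESCs by a log2 fold change of -2.52 (standard error 0.20, edgeR adjusted p = 1.31e-17), was at -0.30 at T24 (adjusted p = 0.357) and was lower again at T48 by -0.84 (standard error 0.28, adjusted p = 0.00709). In WT cells it fell by 2.29 on the log2 scale from ESC to T24 (edgeR adjusted p = 2.1e-17), whereas in iEZR_CA cells the difference was -0.07 (adjusted p = 0.855), and the 2 values differed (interaction 2.22, standard error 0.36, adjusted p = 5.62e-07).

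*Sox7* (ENSMUSG00000063060, chromosome 14, 63943673 to 63950732, plus strand), one of the SoxF factors, lies on the same stretch of chromosome 14 and was the scarcest of the 10 genes. Raw counts were 9, 8 and 9 in WT ESC libraries (26 in sum) and 2, 2 and 0 in iEZR_CA ESC libraries (4). At T24 they were 6, 0 and 1 in WT (7) and 4, 1 and 5 in iEZR_CA libraries (10). At T48 they were 17, 3 and 11 in WT (31) and 1, 1 and 0 in iEZR_CA libraries (2). Corrected for library size, WT cells had 5.42 times the *Sox7* of iEZR_CA cells in ESCs (95% counting interval 1.88 to 21.4), 0.688 times at T24 (0.222 to 2.00) and 17.0 times at T48 (4.32 to 146), where the intervals cover counting error only. In normalized counts, every WT library at ESC and T48 lay above every iEZR_CA library, and at T24 they overlapped. The difference passed edgeR's test in ESCs (adjusted p = 0.0035) and at T48 (1.27e-05) and not at T24 (0.57). *Sox7* passed the low-count filter through WT ESC and WT T48 libraries alone, where it was high. Its calls that involve those groups therefore rest on the libraries that admitted the gene, and are a description only. With the filter on low counts set on the compared groups alone, *Sox7* could not be tested at any of the 3 stages, in the WT changes from ESC to T24 and from T24 to T48, in the iEZR_CA change from T24 to T48, or in the interaction to T24. WT T24 replicate 1 held 6 of the 7 WT counts at T24, and without it the log2 difference between the lines there went from 0.53 to 2.18 and still did not pass (adjusted p = 0.129), a value that rests on 1 WT count. Within WT cells *Sox7* fell from ESC to T24 (log2 fold change -1.78, adjusted p = 0.00976) and rose from T24 to T48 (2.15, adjusted p = 0.00119). Without WT T24 replicate 2, which had 0 counts, the fall was at -1.26 and no longer passed, and without WT T24 replicate 1 the fall and the rise became -3.43 and 3.80, again resting on 1 count at T24. The difference from ESC to T24 in iEZR_CA cells was 1.11 (adjusted p = 0.284), and the interaction of line and time was 2.89 (standard error 1.08, adjusted p = 0.0269). It became 4.54 without WT T24 replicate 1, and did not pass without WT T24 replicate 2 (2.38), iEZR_CA ESC replicate 3 (2.50), iEZR_CA T24 replicate 1 (2.56) or iEZR_CA T24 replicate 3 (2.52). In iEZR_CA cells *Sox7* went from 10 counts at T24 to 2 at T48, a difference that passed with all libraries (adjusted p = 0.0477) and did not pass under DESeq2 (adjusted p = 0.0746), with libraries scaled to the added spike-in RNAs (0.0665), without a filter on low counts (0.0738), or without iEZR_CA T24 replicate 1 (0.148), iEZR_CA T24 replicate 3 (0.181) or iEZR_CA T48 replicate 1 (0.0731), 2 (0.0842) or 3 (0.121).

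*Gata4* and *Sox7* lie close together, in a block of chromosome 14 already known from these data to be lower in iEZR_CA cells. The tested genes around them were laid out by position to describe that block. Within 5 Mb of *Gata4*, 82 other tested genes had a median log2 fold change between the lines of -0.95 in ESCs, -0.81 at T24 and -0.89 at T48. At the threshold used throughout, 66, 59 and 62 of them were called lower and 4, 4 and 5 higher. Of all 18469 genes tested, 5181, 5556 and 5555 were called lower and 4877, 5697 and 5727 higher. For the 642 other tested genes of the whole of chromosome 14, these neighbours included, the medians were -0.30, -0.36 and -0.25. Of those, 311, 324 and 299 were called lower and 102, 112 and 138 higher. Most neighbours of *Gata4* and *Sox7* were also lower in iEZR_CA cells at all 3 stages, which describes the known block and is not separate support for it. In ESCs *Gata4* (-2.52) and *Sox7* (-2.36) lay below the median of these neighbours. At T24 they lay above it (-0.30 and 0.53), and at T48 *Gata4* (-0.84) was close to it while *Sox7*, by the counting ratio above, lay below it. The nearest tested protein-coding genes were *Neil2*, a DNA glycosylase gene, with -3.09 in ESCs, -1.75 at T24 and -2.25 at T48, and *Fam167a* with -0.94, -0.21 and -0.10, of which the last 2 did not pass (adjusted p = 0.104 and 0.573). Those beside *Sox7* were *Pinx1*, which encodes a telomerase inhibitor, with -0.96, -1.24 and -1.30, and *Msra*, a methionine sulfoxide reductase gene, with -0.96, -0.49 and -0.36. Around none of the other 8 markers did the median within 5 Mb leave the range of -0.15 to 0.17 at any stage. Within 1 Mb, where fewer genes lie, the medians around these 8 ran from -0.35 to 0.44, with -0.35 in ESCs and 0.44 at T24 for the 10 genes around *Foxa2*, -0.33 in ESCs for the 9 around *Pdgfra*, 0.27 in ESCs for the 12 around *Cubn* and 0.26 at T24 for the 9 around *Gata6*. Whether a difference in DNA copy number accompanies the low block was not tested.

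**Figure D4:**
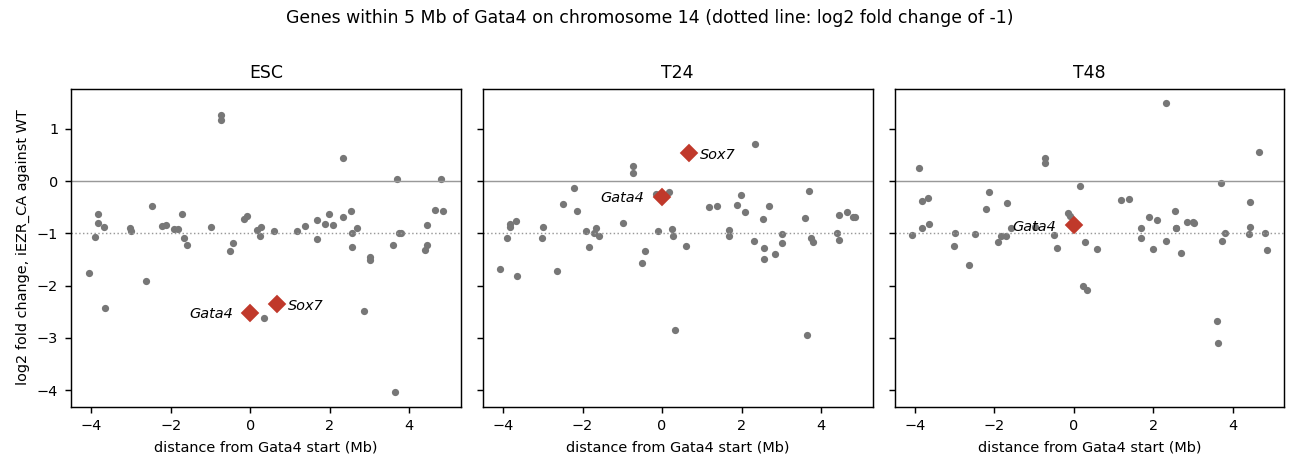
Log2 fold change of iEZR_CA against WT (vertical axis) against distance from the start of *Gata4* in Mb (horizontal axis) at each stage, for *Gata4* and *Sox7* (red diamonds) and for their neighbours with a mean of at least 50 normalized counts (grey points). Most neighbours lie near the dotted line at -1 at all 3 stages, and *Gata4* moves from -2.52 in the ESC panel to -0.30 at T24; *Sox7* is left out at T48.

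*Gata6* (ENSMUSG00000005836, chromosome 18, 11052064 to 11085635, plus strand), the earliest of the endoderm GATA factors, went the other way from *Gata4*. In ESCs, WT libraries had 31.5, 29.8 and 35.8 normalized counts and iEZR_CA libraries 67.5, 55.2 and 61.6. At T24 they had 52.2, 35.3 and 34.7 in WT and 45.9, 39.5 and 35.6 in iEZR_CA cells. At T48 they had 34.8, 26.8 and 39.3 in WT and 24.3, 30.8 and 25.2 in iEZR_CA cells. The lines were apart in ESCs, overlapped at T24 and overlapped again at T48. *Gata6* was higher in the iEZR_CA line in ESCs, by 0.90 on the log2 scale (standard error 0.19, edgeR adjusted p = 4.1e-05), and was at -0.11 at T24 (adjusted p = 0.647) and -0.37 at T48 (0.14). It fell in iEZR_CA cells by 1.17 on the log2 scale from ESC to T48 (adjusted p = 3.67e-07) while WT cells were at 0.10 (0.672), and the change differed between the lines at T48 (interaction -1.28, adjusted p = 0.000184) and at T24 (-1.02, adjusted p = 0.00183). Without WT T24 replicate 1, the highest of that group, the interaction at T24 was -0.72 and no longer passed. The fall from T24 to T48 in iEZR_CA cells (-0.56, adjusted p = 0.0208) did not pass without iEZR_CA T24 replicate 1 (-0.48), iEZR_CA T48 replicate 1 (-0.48) or iEZR_CA T48 replicate 3 (-0.52).

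*Sox17* (ENSMUSG00000025902, chromosome 1, 4490931 to 4497354, minus strand), the other SoxF factor of the lineage, fell in both lines. WT libraries had 23.6, 26.8 and 25.5 normalized counts in ESCs, 24.5, 13.1 and 25.2 at T24 and 13.1, 21.03 and 9.82 at T48. iEZR_CA libraries had 9.97, 15.1 and 32.2, then 8.09, 14.4 and 15.0, then 10.9, 6.16 and 4.80. The iEZR_CA ESC libraries were the most scattered, with replicate 3 above every WT ESC library. From ESC to T48 *Sox17* fell by 0.95 on the log2 scale in WT (edgeR adjusted p = 0.00607) and by 1.25 in iEZR_CA cells (0.004), and no difference between the lines passed, with a log2 fold change in ESCs of -0.51 (adjusted p = 0.151), then -0.68 at T24 (0.0726) and -0.81 at T48 (0.0865). Single libraries decided several of these results. The fall in WT was at -0.72 without WT T48 replicate 3 and that in iEZR_CA at -0.77 without iEZR_CA ESC replicate 3, and neither then passed. A difference between the lines passed in ESCs without iEZR_CA ESC replicate 3 (-0.99), at T24 without WT T24 replicate 2 (-0.91), and at T48 without WT T48 replicate 3 (-1.04) or iEZR_CA T48 replicate 1 (-1.22).

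*Foxa2* (ENSMUSG00000037025, chromosome 2, 148042877 to 148046969, minus strand), a forkhead pioneer factor of endoderm, dipped at T24 in both lines. WT libraries had 6.74, 14.5 and 12.8 normalized counts in ESCs, 5.15, 4.04 and 9.46 at T24 and 9.27, 19.1 and 15.5 at T48. iEZR_CA libraries had 8.86, 15.9 and 16.8, then 2.70, 4.56 and 7.50, then 24.3, 26.2 and 20.4. The lines overlapped until T48, when all iEZR_CA libraries were above all WT libraries. From ESC to T24 *Foxa2* fell by 1.42 on the log2 scale in iEZR_CA cells (edgeR adjusted p = 0.00444) and by 1.05 in WT cells (0.0272), the latter not passing under DESeq2 (-1.01), with libraries scaled to the added spike-in RNAs (-0.89), or without WT ESC replicate 2 (-0.84) or 3 (-0.99) or WT T24 replicate 1 (-0.94) or 2 (-0.87). The fall in iEZR_CA cells could not be tested with the filter on low counts set on the compared groups alone. *Foxa2* rose from T24 to T48 by a log2 fold change of 1.24 in WT (edgeR adjusted p = 0.00871) and 2.20 in iEZR_CA cells (8.44e-07), and was higher in iEZR_CA cells at T48 by 0.82 (standard error 0.31, adjusted p = 0.0191). The interaction of line with the change from ESC to T48 was 0.59 and did not pass (adjusted p = 0.329). The difference at T48 did not pass under DESeq2 (0.77), without WT T48 replicate 1 (0.51) or without iEZR_CA T48 replicate 2 (0.73). The rise in WT was at 1.13 without WT T24 replicate 1 and 1.10 without WT T48 replicate 3, and did not pass either way. Over the whole 48 h it rose in iEZR_CA cells by 0.78 (adjusted p = 0.0229), which did not pass under DESeq2 (0.78) or without iEZR_CA ESC replicate 1 (0.55), iEZR_CA T48 replicate 1 (0.76) or iEZR_CA T48 replicate 2 (0.69).

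*Hnf4a* (ENSMUSG00000017950, chromosome 2, 163506808 to 163572910, plus strand), a nuclear receptor of visceral endoderm, had its highest mean at T24 in WT and at T48 in iEZR_CA cells. WT libraries had 11.2, 5.36 and 7.66 normalized counts in ESCs, 18.03, 28.3 and 17.3 at T24 and 5.41, 1.91 and 4.91 at T48. iEZR_CA libraries had 8.86, 6.70 and 5.60, then 16.2, 9.12 and 13.1, then 20.1, 13.1 and 24.0. WT cells were highest at T24 and lowest at T48, when all iEZR_CA libraries were above all WT libraries. In WT cells *Hnf4a* rose by 1.43 on the log2 scale from ESC to T24 (edgeR adjusted p = 0.000284) and fell by 2.18 from T24 to T48 (2.96e-06). In iEZR_CA cells the successive differences were 0.77 (adjusted p = 0.115) and 0.59 (0.119), and the rise over the whole 48 h was 1.36 (0.00126). Against WT, iEZR_CA cells were at -0.13 in ESCs (edgeR adjusted p = 0.844), lower at T24 by -0.78 (standard error 0.32, adjusted p = 0.0315) and higher at T48 by 1.98 (standard error 0.41, adjusted p = 2.71e-05). The change from ESC to T48 differed between the lines by 2.11 (adjusted p = 0.00395). The difference at T24 did not pass under DESeq2 (-0.77), with spike-in scaling (-0.71), without a filter on low counts (-0.78), without WT T24 replicate 2 (-0.54), without iEZR_CA T24 replicate 2 (-0.55) or without iEZR_CA T24 replicate 3 (-0.84).

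*Pdgfra* (ENSMUSG00000029231, chromosome 5, 75152292 to 75198215, plus strand) encodes the receptor for PDGF-A and PDGF-C. WT libraries had 43.8, 30.6 and 19.6 normalized counts in ESCs, 24.5, 30.3 and 37.8 at T24 and 31.7, 26.8 and 44.2 at T48. iEZR_CA libraries had 37.6, 27.6 and 25.2, then 25.6, 23.6 and 24.4, then 26.8, 21.5 and 10.8. The lines overlapped in ESCs and at T24, and at T48 the highest iEZR_CA library was level with the lowest WT library. *Pdgfra* was at -0.01 in ESCs and -0.26 at T24 (edgeR adjusted p = 0.97 and 0.411) and lower in iEZR_CA cells at T48 by a log2 fold change of -0.78 (standard error 0.26, adjusted p = 0.00767), which did not pass without WT T48 replicate 3 (-0.55) or iEZR_CA T48 replicate 3 (-0.56). Per length, its ligand gene *Pdgfa* stood at percentile 84.4 of the genes tested and *Pdgfra* at percentile 6.73. *Pdgfa* fell in WT cells from 3006 ± 176 normalized counts in ESCs to 144 ± 21.9 at T48 (SD, n = 3), and in iEZR_CA cells from 1953 ± 84.7 to 680 ± 29.1. At T48 *Pdgfa* was higher in iEZR_CA cells by 2.27 (adjusted p = 1.23e-29) and *Pdgfc* by 1.24 (4.08e-25). *Pdgfrb*, the other PDGF receptor, had 45.2 ± 9.40 and 31.9 ± 6.32 normalized counts at T48 in WT and iEZR_CA cells, a log2 fold change of -0.48 (adjusted p = 0.0383). Of the 4 PDGF genes listed, iEZR_CA cells had more of 1 and less of 3 in ESCs, more of 3 and less of 1 at T24, and 2 each way at T48, beside 54.5%, 60.9% and 61.1% of all genes called at these stages. All 4 fell from ESC to T48 in each line, beside 74.5% of all genes called in either direction in WT and 70.1% in iEZR_CA cells. Of the 18469 genes tested, 6914 were called lower in WT and 6462 in iEZR_CA cells.

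*Dab2* (ENSMUSG00000022150, chromosome 15, 6299788 to 6440712, plus strand) encodes a clathrin adaptor that links receptors of the LDL receptor family to coated pits. RefSeq gives it a pair of start sites on GRCm38.p6, and the bases just before each are printed because *Dab2* carried the widest difference between the lines among the 10 genes in ESCs and at T24. The windows end before the first annotated exon base and lie on the plus strand, chr15:6299539-6299787 and chr15:6386498-6386597. Capitals mark matches to the GATA motif, searched on both strands as AGATAA, with the variants AGATAG for its last base, TGATAA for its first base and TGATAG for both.
Dab2 upstream start: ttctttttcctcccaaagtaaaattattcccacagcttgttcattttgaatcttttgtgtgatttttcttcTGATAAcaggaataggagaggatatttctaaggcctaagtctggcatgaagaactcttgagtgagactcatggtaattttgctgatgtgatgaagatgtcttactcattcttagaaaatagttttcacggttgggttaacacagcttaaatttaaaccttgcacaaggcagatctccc
Dab2 downstream start: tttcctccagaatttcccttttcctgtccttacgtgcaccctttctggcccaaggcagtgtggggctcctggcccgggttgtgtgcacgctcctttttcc
The upstream window held 1 match, which overlapped no other, beginning 178 bases before the end of the window, and the downstream one held none. Both printed windows stop short of 250 bases, the downstream one at 100. In the full 250 bases before the start, such a match was present in 26.5% of all 32851 promoters, and among the 6 markers found in that promoter set, at 1 of 2 starts of *Dab2*, 1 of 3 of *Foxa2*, 1 of 2 of *Hnf4a* and none of those of *Pdgfra*, *Cubn* and *Amn*. The counts do not tell which start was in use.

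*Dab2* had 55.1, 47.4 and 33.2 normalized counts in WT ESC libraries and 625, 616 and 652 in iEZR_CA ESC libraries. At T24 the WT libraries had 25.8, 32.3 and 42.6 and the iEZR_CA libraries 279, 328 and 301. At T48 the WT libraries had 170, 205 and 192 and the iEZR_CA libraries 130, 165 and 175. The iEZR_CA libraries were far above the WT libraries in ESCs and at T24, and the lines overlapped at T48. *Dab2* was higher in the iEZR_CA line in ESCs, by 3.81 on the log2 scale (standard error 0.11, edgeR adjusted p = 1.31e-38), and at T24 by 3.29 (standard error 0.14, adjusted p = 9.47e-31), 9.75-fold. At T48 it was lower by -0.25 (standard error 0.11, adjusted p = 0.0393), a call that did not hold under DESeq2 (-0.26), with spike-in scaling (-0.20), without a filter on low counts (-0.22), or without WT T48 replicate 2 (-0.21), WT T48 replicate 3 (-0.23) or iEZR_CA T48 replicate 1 (-0.14). The lines came close at T48 from opposite sides. *Dab2* fell steadily in iEZR_CA cells, by 2.02 on the log2 scale from ESC to T48 (adjusted p = 3.28e-30), and rose in WT cells by 2.04 over the same time (6.85e-21), a difference between the changes of -4.06 (standard error 0.16, adjusted p = 3.69e-31). In WT cells the rise came after T24 (2.56, adjusted p = 3.05e-23) and followed a fall from ESC to T24 (-0.52, adjusted p = 0.0217), which did not pass with spike-in scaling (-0.36) or without WT ESC replicate 1 (-0.39), WT ESC replicate 2 (-0.47) or WT T24 replicate 1 (-0.31). In order of level, iEZR_CA ESCs came first, then iEZR_CA T24 cells, then WT and iEZR_CA T48 cells, which overlapped, then WT ESCs and WT T24 cells, which overlapped.

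*Dab2* was the only marker with a mean of at least 50 normalized counts, so the genes most like it were sought among the 12793 other genes at that level, by Pearson's r of log2(normalized count + 1) over the 18 libraries, as a description only. *Slc43a3*, a purine base transporter gene (r = 0.976), *Phlpp2*, a phosphatase gene (0.962), and *D8Ertd738e* (0.958) came first. *Slc43a3* had 67.6, 54.6 and 165 normalized counts as group means in WT ESC, T24 and T48 cells and 505, 279 and 214 in the same order in iEZR_CA cells. As for *Dab2*, its mean was highest in iEZR_CA ESCs and, among the WT groups, in T48 cells, over libraries that are the same for both genes.

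*Cubn* (ENSMUSG00000026726, chromosome 2, 13276338 to 13491813, minus strand) encodes cubilin, the large ligand-binding subunit of the uptake receptor. In ESCs it had 3.37, 4.59 and 5.11 normalized counts in WT and 9.97, 3.35 and 7.00 in iEZR_CA libraries. At T24 it had 16.7, 18.2 and 18.9 in WT and 21.6, 15.2 and 11.3 in iEZR_CA libraries. At T48 it had 67.2, 59.3 and 74.5 in WT and 26.8, 26.2 and 24.0 in iEZR_CA libraries. The lines overlapped until T48, when all WT libraries stood above all iEZR_CA libraries. *Cubn* rose from ESC to T48 by a log2 fold change of 3.89 in WT (edgeR adjusted p = 1.04e-19), 14.9-fold, and by 1.99 in iEZR_CA cells (4.69e-07), and at T48 it was lower in iEZR_CA cells by -1.40 (standard error 0.20, adjusted p = 8.31e-09). The 2 rises differed by -1.91 (adjusted p = 0.00293), which without iEZR_CA ESC replicate 1 was -1.48 and did not pass. In iEZR_CA cells the rise from ESC to T24 (1.24, adjusted p = 0.00434) did not pass without iEZR_CA ESC replicate 2 (0.83), nor the rise from T24 to T48 (0.74, adjusted p = 0.0149) without iEZR_CA T24 replicate 2 (0.72) or 3 (0.55) or under DESeq2 (0.73). *Gm13270*, a gene on the opposite strand that overlaps *Cubn*, had at most 8 counts in any library.

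*Amn* (ENSMUSG00000021278, chromosome 12, 111271095 to 111276426, plus strand) encodes amnionless, the membrane anchor that carries cubilin to the cell surface. At T24 it had 6.44, 7.07 and 6.31 normalized counts in WT libraries and 24.3, 20.5 and 28.1 in iEZR_CA libraries. In ESCs the libraries of both lines lay between 3.37 and 8.51, and at T48 WT libraries had 8.50, 15.3 and 13.1 and iEZR_CA libraries 10.9, 4.62 and 7.19. The 3 iEZR_CA T24 libraries were above the other 15. *Amn* was higher in iEZR_CA cells at T24 by a log2 fold change of 1.85 (standard error 0.36, edgeR adjusted p = 6.87e-06) and was at -0.19 in ESCs and -0.61 at T48 (adjusted p = 0.771 and 0.186). In iEZR_CA cells it rose by 2.05 from ESC to T24 (adjusted p = 3.64e-06) and fell by 1.66 from T24 to T48 (2.23e-05), and the change to T24 differed from that in WT cells by 2.04 (adjusted p = 0.00576).

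Megalin (*Lrp2*), which binds cubilin and is itself a cargo of *Dab2*, had the highest counts of the 10 visceral endoderm genes listed. It had 489 ± 32.2 normalized counts in WT ESCs, 5511 ± 880 at T24 and 8867 ± 1295 at T48 (SD, n = 3). In iEZR_CA cells it had 1148 ± 66.2, 5493 ± 684 and 14573 ± 963. *Lrp2* thus rose in both lines, by 4.15 on the log2 scale in WT and 3.67 in iEZR_CA cells from ESC to T48 (edgeR adjusted p = 1.66e-11 and 2.9e-11), and was higher in iEZR_CA cells in ESCs (1.21, adjusted p = 0.000102) and at T48 (0.73, 0.000164). At T24 the log2 fold change between the lines was 0.01 (adjusted p = 0.949). Among the WT stages all 4 components of the uptake machinery had their highest mean at T48, although the rise of *Amn* did not pass (0.81 from ESC to T48, adjusted p = 0.0719). Among the iEZR_CA stages the highest mean was in ESCs for *Dab2*, at T24 for *Amn* and at T48 for *Cubn* and *Lrp2*.

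From ESC to T24 in WT cells, 6 of the 10 changed, 2 up and 4 down, beside 65.4% of all genes tested. From T24 to T48 in WT cells 5 changed, 4 up and 1 down, beside 65.7% of all genes. Over the whole 48 h in WT cells 4 changed, 2 up (*Dab2*, *Cubn*) and 2 down (*Gata4*, *Sox17*), beside 74.5%. In iEZR_CA cells 5 changed from ESC to T24, 2 up and 3 down, beside 56% of all genes, and 6 from T24 to T48, 2 up and 4 down, beside 59.6%. Over the whole 48 h in iEZR_CA cells 6 changed, 3 up (*Foxa2*, *Hnf4a*, *Cubn*) and 3 down (*Gata6*, *Sox17*, *Dab2*), beside 70.1%. In the calls for 48 h, *Cubn* and *Sox17* moved the same way in both lines, and *Dab2* moved in opposite directions. The *Sox17* fall did not pass without WT T48 replicate 3 or with spike-in scaling in WT cells. In iEZR_CA cells it did not pass without iEZR_CA ESC replicate 3. By the interaction test, 4 genes changed differently between the lines to T24 (*Gata4*, *Gata6*, *Sox7*, *Amn*), beside 38.3% of all genes, and 5 to T48 (*Gata4*, *Gata6*, *Hnf4a*, *Dab2*, *Cubn*), beside 45.8%. With spike-in scaling the same numbers of markers stood beside 13.1% and 21% of all genes. For the changes over time, spike-in scaling gave 4 to 6 markers beside 35.7% to 64.8% of all genes, and no filter on low counts gave 4 to 6 beside 26.5% to 39.2%. The *Sox7* calls counted here could not be tested with the low-count filter set on the compared groups alone, and WT libraries alone let the gene through the main filter. Nor could the *Foxa2* fall in iEZR_CA cells from ESC to T24. The contrasts share libraries, so that their counts are not independent of each other.

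**Figure D5:**
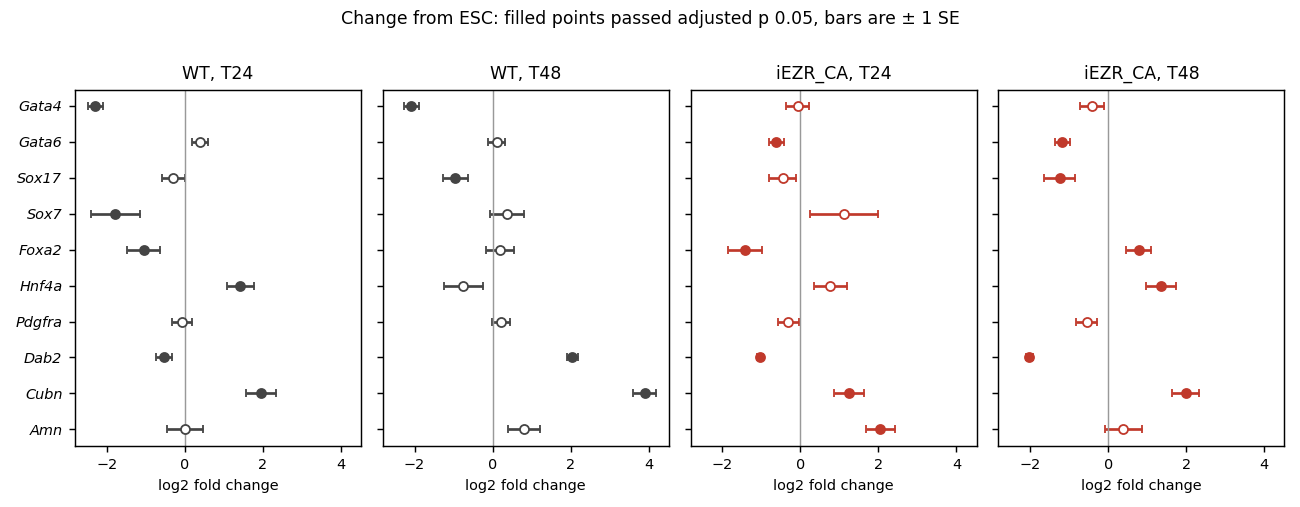
Log2 fold change from ESC (horizontal axis, ± 1 standard error) of each gene at T24 and T48 in WT (grey) and iEZR_CA (red) cells, with filled points for an adjusted p-value under 0.05. *Cubn* lies to the right of 0 in all 4 panels, and *Dab2* lies at 2.04 in WT and -2.02 in iEZR_CA cells at T48; *Sox7* is left out in iEZR_CA T48 cells, which had 2 counts.

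The other endoderm genes listed went in several directions, and their counts stand beside 54.5%, 60.9% and 61.1% of all genes called in ESCs, then T24, then T48. Among 10 basement membrane and parietal endoderm genes, iEZR_CA ESCs had more of 5 and less of 3, with a median of 0.06. By T24 the split was 7 up and 1 down with a median of 1.02, and by T48 it was 3 up and 4 down with a median of -0.34. The 3 with the highest counts were called up at all stages in turn, the laminin chain gene *Lamc1* by a log2 fold change of 0.53, 0.45 and 1.27, *Nid1*, which encodes nidogen, by 0.25, 1.05 and 1.79, and the matrix protein gene *Sparc* by 0.72, 1.06 and 0.19. Among other endoderm transcription factors, *Hhex*, a homeobox factor of anterior endoderm, fell from 363 ± 13.1 normalized counts in ESCs to 102 ± 11.3 at T48 in WT and from 275 ± 36.9 to 158 ± 8.83 in iEZR_CA cells (SD, n = 3). Between the lines *Hhex* was lower in iEZR_CA ESCs (-0.40) and higher at T24 (0.25) and T48 (0.65). *Foxa3*, a forkhead factor, was lower in iEZR_CA cells in ESCs (-1.10, edgeR adjusted p = 0.00641), higher at T24 (1.21, 0.00346) and at 0.74 at T48 (0.0859). *Sox18*, a SoxF gene better known from endothelium, was lower in iEZR_CA cells in ESCs (-1.78) and at T48 (-1.99). Of the 10 visceral endoderm genes only 4 could be tested, with 2 up and 2 down in iEZR_CA ESCs, 1 up and 0 down by T24, and 2 up and 1 down by T48. *Apom*, which encodes apolipoprotein M, was called up throughout (1.51, 1.32 and 2.66), and *Apob* was lower in ESCs and at T48 (-0.99 and -0.74). *Ttr* and *Apoa4*, which mature visceral endoderm secretes in quantity, had 0 counts in every library. Of 4 FGF pathway genes, 2 were called up and 1 down in iEZR_CA ESCs, 3 and 1 by T24, and 4 and 0 by T48. The ligand *Fgf4* was called down first (-0.21 in ESCs, -0.77 at T24) and then up (0.58 at T48), while the receptor *Fgfr1* (0.24, 0.50 and 0.33) and the adaptor *Grb2* (0.12, 0.32 and 0.35) were called up throughout.

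Markers of other cell types also differed between the lines, and their counts are to be read against the 54.5%, 60.9% and 61.1% of all genes called at the successive stages. The summed level of 6 trophectoderm genes was 346 ± 3.77 normalized counts in WT and 1574 ± 68.2 in iEZR_CA ESCs, 234 ± 13.5 and 1279 ± 55.1 at T24, and 222 ± 17.0 and 720 ± 54.6 at T48 (SD, n = 3). Of the 5 trophectoderm genes tested, 4 were called up and 0 down in iEZR_CA ESCs, 3 and 0 by T24, and 2 and 2 by T48, with *Cdx2*, a defining factor of that lineage, at 0.11 in ESCs (edgeR adjusted p = 0.8) and down at T48 (-1.04). *Tfap2a*, the one with the highest counts in ESCs, had 265 ± 10.1 in WT and 1411 ± 60.3 in iEZR_CA ESCs, and *Ascl2* and *Krt7* were also higher there (1.30 and 0.77). Mesendoderm genes summed to 622 ± 32.4 in WT and 721 ± 37.95 in iEZR_CA ESCs, mostly *Gsc*, with 1 up and 3 down of 5 tested, then 2 up and 0 down by T24 and 1 each way by T48, where *Eomes* was higher in iEZR_CA cells (1.15). Fibroblast genes summed to 41.7 ± 9.68 in WT ESCs and 605 ± 33.3 in WT T48 cells, and to 50.8 ± 8.15 and 391.5 ± 39.4 in iEZR_CA cells. *Dcn*, which encodes decorin, led this list at T48 with 227 ± 14.4 in WT and 331 ± 30.1 in iEZR_CA cells and had 0 counts in the ESCs of both lines, and *Postn* was at 0 in 5 of the 6 groups. Of 4 fibroblast genes tested, 1 was called up and 0 down in iEZR_CA ESCs, 1 each way by T24, and 1 up (*Dcn*, 0.58) and 3 down by T48, among them *Col1a2* (-4.21), a collagen gene, and *Thy1* (-2.27), a surface marker gene. Genes of the two-cell-like state, led by *Zscan4d*, summed to 123 ± 9.67 in WT and 96.6 ± 18.1 in iEZR_CA ESCs and to 40.7 ± 11.01 and 20.7 ± 0.774 at T48, with 1 up and 2 down of 4 tested in iEZR_CA ESCs, then 0 and 1, then 0 and 2. The pluripotent list of 6 genes summed to 115867 ± 1119 in WT and 106833 ± 349 in iEZR_CA ESCs, and to 17541 ± 540 and 24906 ± 703 at T48, when iEZR_CA cells had more of 5 of its 6 genes and less of *Pou5f1*, as at T24. In ESCs 0 of the 6 were called up and 4 down. The part of these other cell states in the levels of the endoderm markers was not tested.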

How the data were processed

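Paired-end RNA-seq reads had been trimmed with Trim Galore 0.6.5, aligned to mouse GRCm38 (mm10) with GSNAP and counted per Ensembl release 81 gene with HTSeq, which drops reads that map to several places. The authors deposited the raw read counts per gene as 1 table, which also lists 92 spike-ins and 5 classes of reads not given to a gene. Those classes held 21.3% to 24.3% of the counts in each library and the spike-in 0.575% to 0.884%, and both were left out. Whether counting used strand is not given in the sources used here. The labels name wells but no replicate numbers or batches. The study describes its replicates as independent, and p-values here measure only the spread between these libraries. No replicate pair agreed within sampling noise (chi-square per degree of freedom 1.55 to 3.33 over 18 pairs).

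Genes were kept by filterByExpr and tested with edgeR 4.0.16 (R 4.3.3, TMM factors, robust quasi-likelihood fit, 1 term per group, 12 residual degrees of freedom), with p-values adjusted by Benjamini-Hochberg over all 18469 genes and a threshold of 0.05. The common biological coefficient of variation was 2.98%. Normalized counts are counts divided by DESeq2 1.42.0 size factors, and RPKM uses merged exon length from GENCODE M21, in which 53706 of 53801 gene identifiers were found. The code was tested on simulated data. The markers and lists were chosen with earlier results of these data known. Beyond the 10 markers and *Ezr*, genes were named by rule: the 3 with the largest mean normalized count in each other list, the 3 most like a marker with a mean of at least 50 normalized counts, and the nearest tested protein-coding genes beside *Gata4* and *Sox7*. In the list of other endoderm transcription factors 1 gene is not reported here, so no count is given for that list. *Cdx2*, *Ttr*, *Apoa4*, *Postn* and *Gm13270* were named after their values were seen. Promoter bases are from RefSeq on GRCm38.p6. Alternatives were DESeq2, RLE factors, spike-in scaling, other filters, fits to the compared groups alone, 1 Mb windows and each library left out.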

Additional observations from a re-analysis of the deposited data

Results flagged for a closer look

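Markers whose change from ESC differed between WT and iEZR_CA cells by the interaction test are listed with their log2 difference between the 2 changes, positive where iEZR_CA cells rose more or fell less. From ESC to T24 these were *Gata4* (2.22, standard error 0.36, edgeR adjusted p = 5.62e-07), *Sox7* (2.89, standard error 1.08, 0.0269, not passing with any of 4 libraries left out in turn, at 2.38 to 2.56, and not testable with the low-count filter set on the compared groups alone), *Amn* (2.04, standard error 0.62, 0.00576) and *Gata6* (-1.02, standard error 0.27, 0.00183, at -0.72 and not passing without WT T24 replicate 1). From ESC to T48 these were *Dab2* (-4.06, standard error 0.16, 3.69e-31), *Gata4* (1.67, standard error 0.37, 0.000113), *Gata6* (-1.28, standard error 0.29, 0.000184), *Cubn* (-1.91, standard error 0.55, 0.00293, at -1.48 and not passing without iEZR_CA ESC replicate 1) and *Hnf4a* (2.11, standard error 0.63, 0.00395). For *Gata4*, *Gata6* and *Sox7* the difference came with unequal ESC levels, 97.5 against 17.4, 32.4 against 61.5 and 7.97 against 1.30 normalized counts in WT and iEZR_CA cells. For *Hnf4a* and *Cubn* the lines overlapped in ESCs, at 8.09 against 7.05 and 4.36 against 6.77. *Dab2* differed in ESCs, at 45.2 against 631, and came to 189 against 157 at T48.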

How the results depend on the processing

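No paired analysis was run, because the labels carry no replicate numbers. The replicate numbers used here follow accession order and were not taken to pair libraries. RLE factors changed none of 71 log2 fold change results for the 10 markers. Fits to the compared groups alone changed none of the 59 they could give. DESeq2 lost 7 of 71 results, spike-in scaling 8 and no filter on low counts 3, and leaving out a library lost 42 of 478 and gained 4. Between the lines, spike-in scaling moved the median log2 fold change of all genes by 0.05, 0.07 and 0.04 at the 3 successive stages. Some marker changes over time moved further, as *Sox17* in WT cells over 48 h, from -0.95 to -0.66. That *Sox17* fall and the *Gata6* fall in iEZR_CA cells from ESC to T24 (-0.46) and from T24 to T48 (-0.48) did not pass with spike-in scaling.

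With a library left out, the markers called numbered 4 to 5 in ESCs, 2 to 3 at T24 and 5 to 7 at T48 between the lines. The share of all genes called is not given for these fits. With all libraries it was 54.5%, 60.9% and 61.1%. Direction changed only for values that had not passed. These ran from -0.46 to 0.059 for *Amn* in ESCs, -0.38 to 0.13 for *Hnf4a* in ESCs, -0.26 to 0.24 for *Pdgfra* in ESCs (0.023 with spike-in scaling), -0.23 to 0.19 for *Gata6* at T24 and -0.54 to 0.12 for *Foxa2* at T24. At least 10 counts in every library left 2 markers, *Dab2* and *Gata6*, of which 2, 1 and 1 differed between the lines in ESCs, at T24 and at T48, against 1 in each WT time contrast, 2 in each iEZR_CA time contrast, and 1 and 2 by interaction to T24 and T48. Of the 13185 genes left, 63.1%, 69.5% and 68.4% differed between the lines, 72.3% to 80.5% over time in WT, 63.7% to 75.7% in iEZR_CA, and 47.5% and 55.5% by interaction. Windows of 1 Mb gave medians of -0.95, -0.86 and -0.96 around *Gata4* and -0.95, -0.70 and -0.85 around *Sox7*. The markers other than *Dab2* have few counts, so that differences in them that did not pass may be too small for this depth.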
